A study of Drosophila melanogaster with 2 samples.

Results

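The nuclear genes for the respiratory chain were examined for binding of the bZIP repressor Giant in Drosophila melanogaster embryos. They were chosen by symbol in the Ensembl annotation (ND-, COX and a digit, UQCR-, ATPsyn or Sdh), which gave 88 of the 13945 protein-coding genes on the 6 main arms. Complex I had 40 of them, complex II 8, complex III 9, complex IV 16 and complex V, the ATP synthase, 15. By their names 24 genes are copies, with the suffix L, of another gene, and the other 64 are not copies. Of the copies, 20 have a parent among the 88 and 4 have a parent with a symbol outside the rule. The symbols decided membership, so Sdhaf3, an assembly factor and not a subunit, is counted with complex II.

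The series holds 1 group, whole embryos 0 to 18 h after egg laying from a gt-GFP strain that carries an insertion targeting gt, with 2 biological replicates. Chromatin sonicated to 200 to 800 bp was precipitated with an antibody to GFP, which recovers the gt-eGFP fusion protein, and sequenced. The age range pools the stages of the gap gene with many later ones, cell types are pooled in a whole embryo, and no untagged embryos are among the samples used here. Enrichment was called by the authors against a control library.

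The respiratory chain passes electrons from NADH and succinate through complexes I to IV of the inner mitochondrial membrane, and complex V uses the resulting proton gradient to make ATP. Nearly all subunits are encoded in the nucleus and must be made in proportion, and in Drosophila many of these genes have a second copy, often with testis-biased expression. A palindrome of the bZIP type, the nuclear respiratory gene element, has been described near the starts of such genes in flies, and the preferred site of Giant, a bZIP factor of the gap gene class, is 1 form of it.

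A peak is counted at a gene here when its summit lies within 500 bp of any annotated transcription start site (TSS). The irreproducible discovery rate (IDR) compares the ranks of a region in a pair of peak sets, and is low where the ranks match. Thresholded peaks had a −log10 IDR of 2 or more, and 1825 such peaks of the pooled list lay on the main arms. Ranked regions are the far longer list before that threshold, 145186 in the pooled list, and include weak ones. The peak signal is the value of the authors' caller, and its units are not given, so it is compared only within a list. The files hold no reads, so depth is unknown, and intervals on shares cover the sampling of genes only.

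The sequences at 3 of the peaks described next are shown without bases in annotated UTRs, as they are the DNA that the summits mark. All are on the plus strand of dm6. In the ND-ASHI peak, capitals mark CACTG, a short sequence (CAGTG on the other strand) that 50.7% of all pooled peaks hold within 100 bp of the summit. No share for other DNA is given here, so this match has no background. Within 100 bp of the summit the sequence also occurred at ND-24 and ND-MWFE, and it did not at ND-42. The ND-ASHI stretch, chrX:6679300-6679400, lies between the outermost TSS of ND-ASHI and a TSS of Fum1, in an intron of a longer Fum1 transcript, with the summit at its base 51. The ND-24 stretch, chrX:17632180-17632253, starts before the summit and lies in an intron, and the ND-42 stretch, chr3R:22027481-22027530, starts 1 base after the summit.
ND-ASHI: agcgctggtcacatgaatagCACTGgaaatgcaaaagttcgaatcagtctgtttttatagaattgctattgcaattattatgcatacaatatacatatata
ND-24: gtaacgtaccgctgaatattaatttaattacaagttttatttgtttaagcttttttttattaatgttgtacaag
ND-42: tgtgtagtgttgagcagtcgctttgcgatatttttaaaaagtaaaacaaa

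The palindrome itself, in the family TTACGTAA, TTACATAA, TTATGTAA and TTATATAA, is shown in 30 bases of dm6 on the strand of each gene, with the palindrome in capitals. The sites shown were chosen after their values were seen, to give each complex and several positions. TTATGTAA is TTACATAA read on the other strand and is not shown apart. The first 6 hold TTACGTAA, the preferred site of Giant. ND-42 is the member whose site lay within 100 bp of a thresholded summit.
ND-ASHI, chrX:6677926-6677955, minus strand, intron: cactgttttgtTTACGTAActtttgcatgc
ND-B18, chrX:15063969-15063998, plus strand, UTR: agaaaaacaatTTACGTAAtttaattgagc
UQCR-C1, chr3R:14890462-14890491, plus strand, intron: gaggatttaaaTTACGTAAttgtaaatgat
UQCR-C2, chr3L:16584496-16584525, plus strand, intron: gaaggctcgtgTTACGTAAaacaccccaag
COX7A, chr3R:8340809-8340838, minus strand, coding: cctacatccaaTTACGTAAgttccctggag
ATPsynC, chr3R:31219131-31219160, minus strand, UTR: ttttccgcatgTTACGTAActtttctgagg
ND-42, chr3R:22027554-22027583, plus strand, outside the gene: ttttgtaagtgTTATATAAagtttttaaaa
ND-24, chrX:17632522-17632551, plus strand, intron: tgttccccgagTTATATAAttggcgacagg
SdhD, chr3R:23760378-23760407, minus strand, intron: aacagctttcaTTATATAAccaaaccgttt
UQCR-Q, chr3L:17475265-17475294, plus strand, UTR: cagtgcgaaaaTTACATAAcctccgggtgc
COX7B, chr3L:17425683-17425712, plus strand, intron: aaccttaaaaaTTACATAAtgtggataagc
ATPsynCF6, chr3R:23355841-23355870, minus strand, intron: aaacaattgtaTTACATAAcctttttaagg

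Few respiratory chain genes had a thresholded peak. In the pooled list 4 of 88 (4.55%) had a summit within 500 bp, against 7.49% of all protein-coding genes, so the share of the members was not above the background. All 4 were complex I genes. The conservative list held 4 members as well, against 6.88% of all genes, and they were the same 4. The list of replicate 1 held 4 members against 5.84% of all genes, and that of replicate 2 held 2 against 5.11%. For the members of complexes II to V the pooled count was 0, of 8, 9, 16 and 15 genes, which allows shares of up to 37.5%, 33.3%, 18.8% and 20%. These counts hold for the symbol rule only. Of 10 respiratory chain genes outside it, described below, 3 had a pooled peak. Among these were levy, of complex IV, at 176 and blw, of complex V, at 119. The copies had 0 of 24, which allows up to 12.5%. At a looser IDR of 0.05 the pooled list held 9 members against 10.6% of all genes. The 5 added were ND-SGDH at 65.6 and, outside complex I, COX6B at 55.8, ATPsyngamma at 53, COX7B at 50.1 and ATPsynE at 48.5, of which ND-SGDH, COX7B and ATPsynE are named after their values were seen.

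ND-ASHI (FBgn0029888), a membrane-arm subunit of complex I, had the strongest of these peaks. Its signal was 152 in the pooled list, rank 388 of 1825, and it was in the thresholded list of both replicates, at 84.5 in replicate 1 and 63.9 in replicate 2. The summit lay 232 bp upstream of the outermost TSS of ND-ASHI and 290 bp from the nearest TSS of Fum1, a fumarase of the tricarboxylic acid cycle that is transcribed away from it. The peak therefore counts for both genes.

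ND-MWFE (FBgn0085468), a small membrane subunit of complex I, was the other member in the lists of both replicates. The pooled signal was 128, rank 531, and the replicates gave 60.8 and 60.7. The summit was 198 bp upstream of ND-MWFE and 23 bp from the TSS of TppII, which encodes tripeptidyl peptidase II.

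ND-24 (FBgn0030853), an iron-sulphur subunit of the NADH-oxidising arm, had a pooled signal of 108, rank 703, with the summit 114 bp downstream of its TSS and 156 bp from that of corolla, a synaptonemal complex gene. Replicate 1 held it as a thresholded peak of 53.5. In replicate 2 it was a ranked region of 55.1 that was not in the thresholded list. The strongest summit was 115 bp downstream of a TSS in replicate 1 and 63 bp upstream of one in replicate 2.

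ND-42 (FBgn0019957), an accessory subunit of complex I, had the weakest pooled peak, of 81 and rank 1151. In both replicates there was a ranked region only. The strongest was 39.3 in replicate 1, with its summit 333 bp upstream of ND-42, and 42.4 in replicate 2, 141 bp upstream, on either side of the pooled summit. The summit lay 229 bp upstream of ND-42 and 0 bp from the TSS of Cchl, the haem lyase that attaches haem to cytochrome c. The conservative list had a second peak there, of 14.1, with its summit 27 bp upstream of ND-42.

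COX5A (FBgn0019624), a nuclear-encoded subunit of cytochrome c oxidase, was in the thresholded list of replicate 1 and in no other thresholded list. Its signal there was 41.6, rank 885 of 1163, and replicate 2 had a ranked region of 24.4. The summit was 36 bp upstream of COX5A and 143 bp from the TSS of glo, which encodes an RNA-binding protein of the hnRNP F/H type. The pooled ranked signal of COX5A, 69.4, was the highest among the members of complex IV, but the region was not in the pooled thresholded list.

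**Figure D1:**
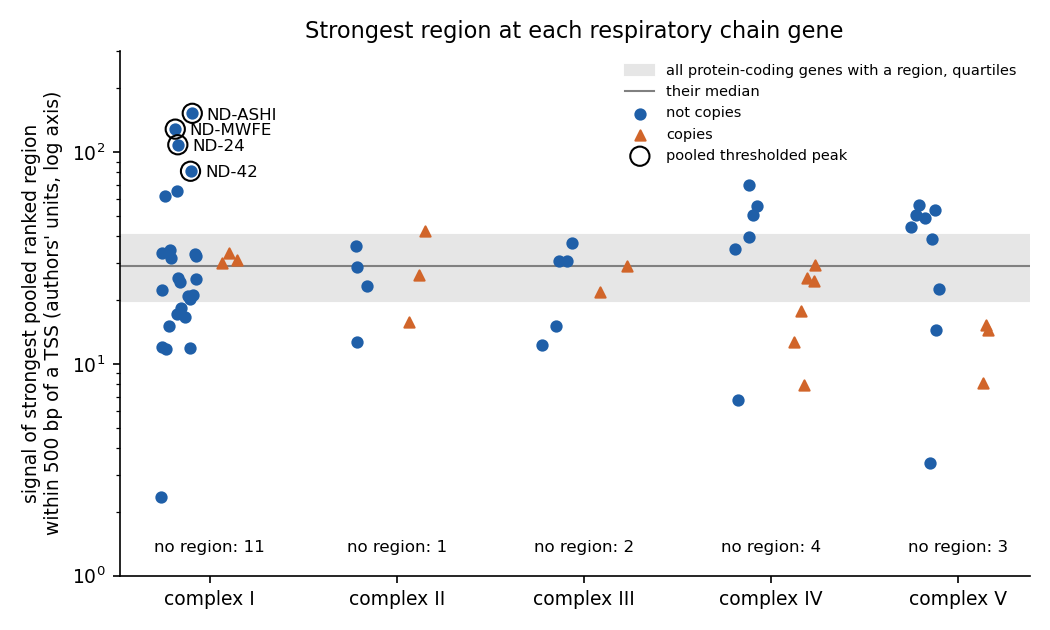
Signal of the strongest pooled ranked region within 500 bp of a TSS for each respiratory chain gene, in the authors' units on a log axis, by complex; circles are genes that are not copies, triangles are copies, rings mark a pooled thresholded peak, and the band and line give the quartiles and median of all protein-coding genes with a region. The 4 ringed genes, all in complex I, lie between 81 and 152, and 21 genes have no region.

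Each of these 5 peaks lay at a gene with a divergent neighbour, a protein-coding gene on the other strand that starts at most 1000 bp away and is transcribed in the opposite direction. Such neighbours were common among the members. They were found at 44 of 88 (50%) against 36.2% of all genes, and at 40 of the 64 genes that are not copies (62.5%) against 4 of 24 copies (16.7%). Among all genes, 13.8% of those with a divergent neighbour had a pooled peak and 3.9% of the others. The members gave 4 of 44 (9.09%) with a divergent neighbour and 0 of 44 without, where 0 allows up to 6.82%. A summit between a pair of divergent genes cannot be assigned to either by position, and when a peak was given only to the gene with the nearest TSS, 2 members kept one, ND-24 and ND-ASHI, against 5.36% of all genes.

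The members just outside the 500 bp window were COX6B, with a pooled summit of 56.4 at 758 bp, and ATPsynCF6, with one of 78.2 at 940 bp. COX6B encodes a subunit of cytochrome c oxidase, and ATPsynCF6 encodes coupling factor 6 of the ATP synthase stalk. The summit near ATPsynCF6 lay within 500 bp of Sec13. Of the members inside the window, ND-ASHI and ND-42 had the farthest summits, at 232 and 229 bp. The count of 4 members was the same with a window of 250 bp. The median distance to the nearest pooled summit was 14240.5 bp for the members and 22065 bp for all genes. Within 10000 bp, 44.3% of the members and 31.3% of all genes had one.

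Ranked regions gave most members a value, and it was near that of other genes. In the pooled ranked list 67 of 88 (76.1%) had a region within 500 bp against 77.3% of all genes, with a median signal of the strongest of 26.2 against 29.0. Replicate 1 had 63 of 88 against 71.2% of all genes, with medians of 14.4 and 14.2. Replicate 2 had 62 of 88 against 72.2%, with medians of 18.3 and 19.0. The median of the members was thus below that of all genes in the pooled list and in replicate 2, and above it in replicate 1. Of the 67 members with a region, 15 (22.4%) were above the upper quartile of all genes with one. Both genes on chromosome 4, ND-49 and ATPsynbeta, had no region, as had most genes there: 2 of 80 (2.5%) had one.

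Complex I spanned the widest range of the pooled ranked signal, from 152 at ND-ASHI to 2.35 at ND-B14.5B, an accessory subunit of the membrane arm. For ND-B14.5B the replicates gave 7.33 and 7.74. Complex II ran from 42.4 at SdhAL, a copy of the flavoprotein gene, and 36.1 at SdhD, a membrane anchor, down to 12.7 at SdhB, the iron-sulphur subunit. Sdhaf3 had no region. In complex III, UQCR-Q was highest at 37 and UQCR-C1, a core protein, followed at 30.5, while UQCR-C2, the other core protein, was lowest at 12.3.

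Among the members of complex IV, COX5A at 69.4 was followed by COX6B at 55.8, for which the replicates gave 27 and 27.9. The lowest was COX7A at 6.76, a small membrane subunit that had a region of 7.53 in replicate 1 and none in replicate 2. Complex V ran from 56.0 at ATPsynCF6 and 53.0 at ATPsyngamma, the central stalk, to 3.40 at ATPsynG, a membrane subunit. ATPsyngamma had 15.8 in replicate 1 and 45.2 in replicate 2, and ATPsynCF6 had 20.0 and 49.7. The medians were 25.5 for complex I, 26.2 for II, 28.8 for III, 27.3 for IV and 30.7 for V, all close to the 29.0 of all genes beside the spread within each complex.

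Both replicates held a region at 48 members (54.5%), against 58.8% of all genes. Over those 48 genes the Spearman correlation of the replicates' strongest signals was 0.55, against 0.48 over 8206 genes. These are correlations across genes, which share libraries and are not independent replicates. The strongest summits of the replicates lay within 100 bp of each other at 22 of the 48 members (45.8%) and at 47.6% of all such genes, and at the others the replicates marked different places.

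**Figure D2:**
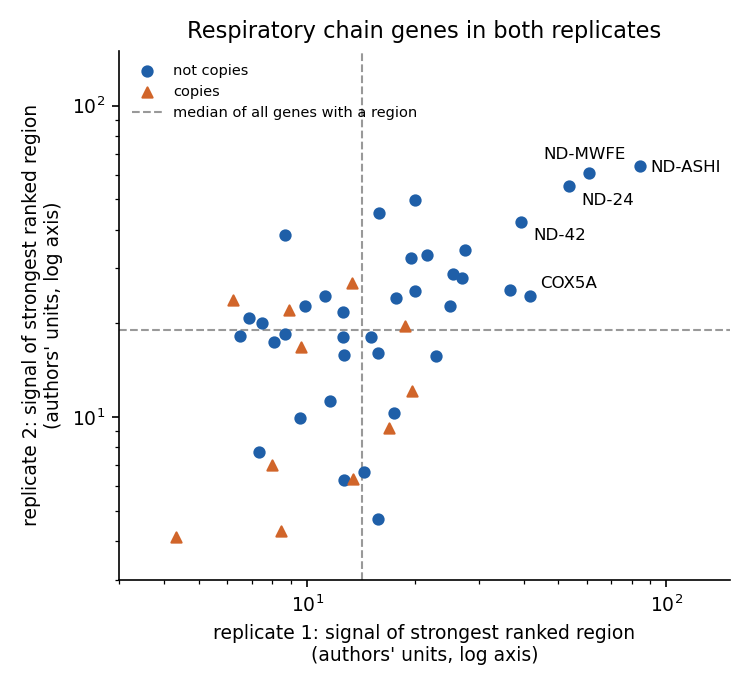
Signal of the strongest ranked region within 500 bp of a TSS in replicate 1 (x axis) and replicate 2 (y axis), in the authors' units on log axes, for the 48 respiratory chain genes with a region in both; dashed lines are the medians of all genes with a region. The 4 genes with a pooled peak lie at the upper right, and COX5A, thresholded in replicate 1 only, has 41.6 and 24.4.

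Copies and parents gave no common order. Of the 20 pairs with both genes among the members, the copy had the stronger pooled region in 6 and the parent in 5. In 3 pairs a region was found at the copy alone, in 4 at the parent alone and in 2 at neither. The medians of the strongest pooled region were 25.9 for these copies and 28.5 for the parents, with 14 of 20 and 13 of 18 genes having one. The 20 pairs have only 18 parents, so they are not all separate. ND-51 and COX7A each count in more than 1 pair, and both copies of COX7A were above it. These data do not measure where a copy is expressed.

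The strongest copies were SdhAL, ND-51L2 and ND-B14.5AL. SdhAL was above SdhA, the flavoprotein of complex II, in the pooled list (42.4 and 23.2), in replicate 1 (18.7 and 15.7) and in replicate 2 (19.6 and 4.69). ND-51L2 was below ND-51, the flavin-binding subunit of complex I, in the pooled list (33.3 and 62.2) and in replicate 1 (22.3 and 25.5), and in replicate 2 it had no region while ND-51 had 28.8. ND-B14.5AL was above ND-B14.5A, an accessory subunit of complex I, in the pooled list (30.9 and 20.2), was found without it in replicate 1 (19.6), and was below it in replicate 2 (12.1 and 17.1). The order within 2 of these 3 pairs was thus the same wherever both genes had a region, and for ND-B14.5AL it turned between lists.

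**Figure D3:**
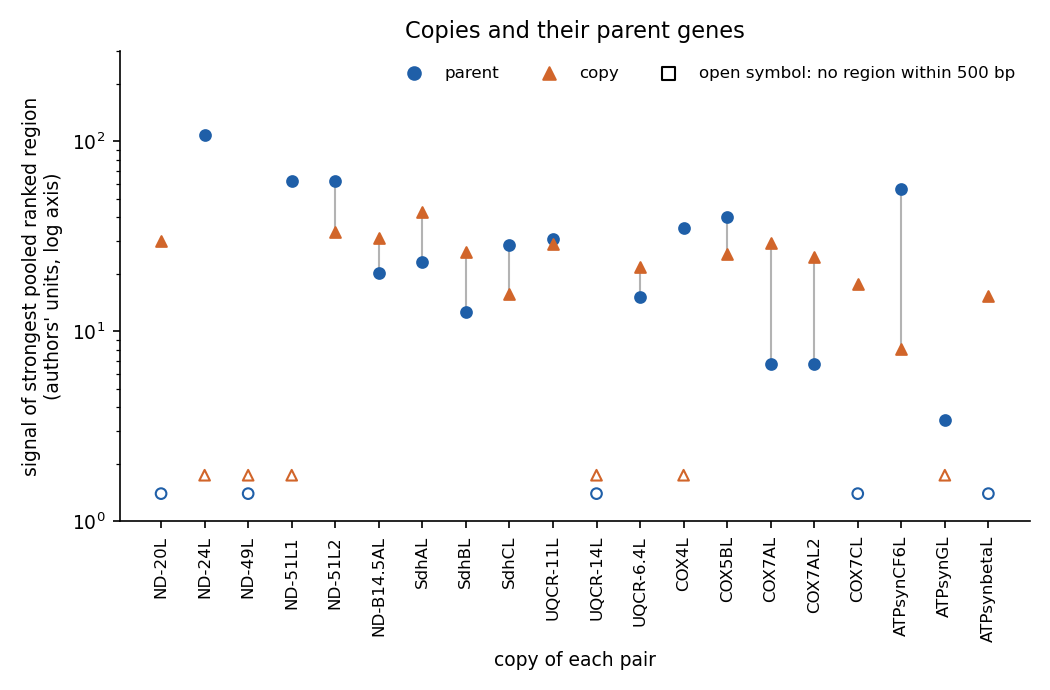
Signal of the strongest pooled ranked region within 500 bp of a TSS for the 20 copies and their parents, in the authors' units on a log axis; a line joins a pair with a region at both genes, and open symbols at the foot mark genes with no region. The copy is higher in 6 joined pairs and the parent in 5.

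The genes that are not copies carried the palindrome more often than the genome as a whole. The palindrome was described near the starts of genes of this class, so its excess in them is not an independent finding. A site of any of the 4 forms lay within 500 bp of a TSS in 52 of 88 members (59.1%, Wilson interval 48.6% to 68.8%), against 17.5% of all genes. It was present in 50 of the 64 genes that are not copies (78.1%, 66.6% to 86.5%) and in 2 of the 24 copies (8.33%, 2.32% to 25.8%), which were COX6AL2 and COX7AL2. Of the 18 parents 15 had a site and of their 20 copies 1 had. By complex, the site was in 25 of 40 genes of complex I, 4 of 8 of II, 4 of 9 of III, 8 of 16 of IV and 11 of 15 of V. The exact TTACGTAA was in 13 of 88 (14.8%) against 1.86% of all genes, none of them a copy. Mean GC content from 500 bases before to 500 after the 5′-most TSS was 41.7% for the genes that are not copies, 42.7% for the copies and 42.4% for all genes. From 250 before to 50 after it was lower at the members, 34.8% for the genes that are not copies and 35.8% for the copies against 39.1% for all genes. The part of base composition in the palindrome counts was not tested.

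Many of the sites lay at a like distance from the TSS, measured from the nearest annotated one. The genes that are not copies held 65 sites, of which 52 (80%) lay downstream of the TSS, against 38.2% of the 2823 pairs of a gene and a site over all genes. In the bin from 200 to 250 bp downstream there were 23 sites in 23 of these genes (35.9%), against 1.02% of all genes. Of the respiratory chain genes outside the symbol rule 5 of 10 (50%) had a site in that bin, and of the tricarboxylic acid cycle genes 4 of 15 (26.7%). The bin was picked after the positions had been seen. More than any other feature, introns held these sites, 35 of 65 (53.8%) against 26.9% for all genes. UTRs held 33.8% against 26.9%, and 7.69% lay outside the gene against 42.4%. The intron and UTR shares are therefore not independent of the downstream position. In the narrow promoter window, 250 bases before to 50 after the 5′-most TSS, the palindrome was found in 6.82% of members against 5.18% of all genes. With any annotated TSS in that window it was in 13.6% against 6.4%, and in 18.8% of the genes that are not copies.

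**Figure D4:**
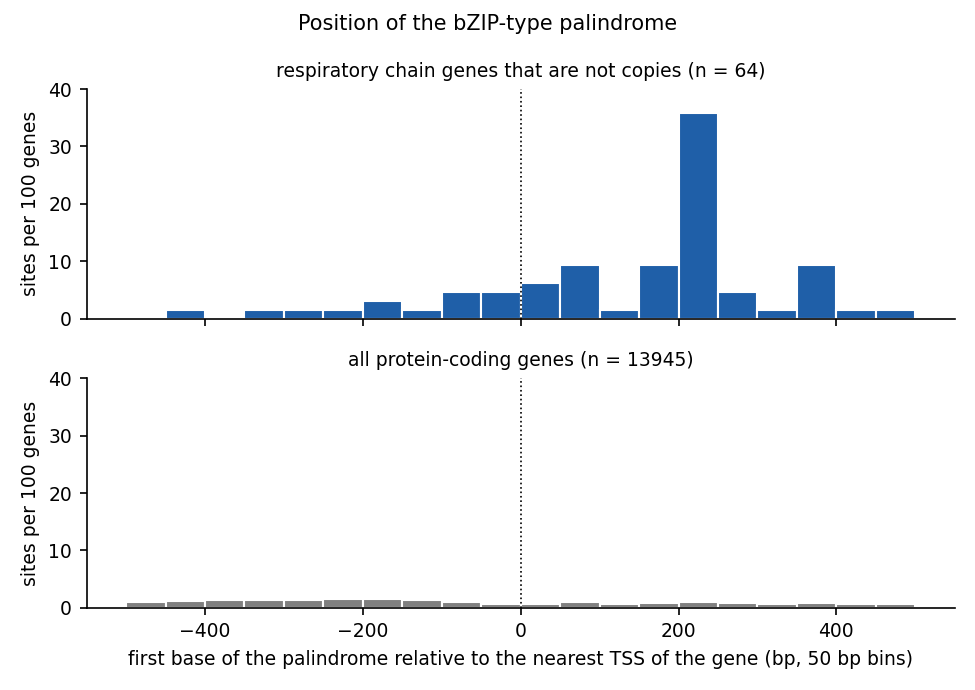
Number of palindrome sites per 100 genes in 50 bp bins from the TSS, for the 64 respiratory chain genes that are not copies (top) and all protein-coding genes (bottom), on the same axis. The bin from 200 to 250 bp downstream holds 35.9 sites per 100 genes in the top panel and 1.03 in the bottom one.

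Thresholded summits were rare at these sites. Of the 67 sites of the members, 1 (1.49%), that of ND-42, lay within 100 bp of a pooled thresholded summit, against 2.05% of the 2390 sites of all genes. That site is 144 bp upstream of ND-42 in its TTATATAA form. Of the 14 TTACGTAA sites of the members 0 had such a summit, which allows up to 21.4%, against 1.75% of these sites in all genes. At ND-ASHI the peak was upstream of the gene, while its TTACGTAA lies 217 bp downstream of a TSS with no ranked summit within 100 bp. Its TTACATAA, 427 bp downstream of a TSS, had a ranked summit within 100 bp in each list. The signals were 24.2 in the pooled list, 11.1 in replicate 1 and 8.62 in replicate 2. At ND-24 and ND-MWFE the sites were 212 and 223 bp downstream, and the one at ND-MWFE had a ranked region of 24.3 beside its thresholded peak of 128 elsewhere. Among the members with a site, 4 of 52 (7.69%) had a pooled peak within 500 bp of a TSS, against 9.61% of all genes with a site, and among the 36 without a site 0 had, which allows up to 8.33%, against 7.04% of all genes without one.

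Weak regions were found at more of these sites. A pooled ranked summit lay within 100 bp of 22 of the 67 member sites (32.8%), against 18.1% of all sites. In replicate 2 the share was 31.3% against 16.6%, and in replicate 1 it was 14.9% against 12.6%, so the gap was wider in replicate 2. The pooled signals of these 22 had a median of 24.3 and ran from 4.45 to 81, beside a median of 22.4 for all sites with a region. UQCR-Q, with a site 227 bp downstream, had 37 in the pooled list and 21.8 in replicate 2, with no region near the site in replicate 1. The comparison of sites with regions was chosen after the site counts were seen.

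**Figure D5:**
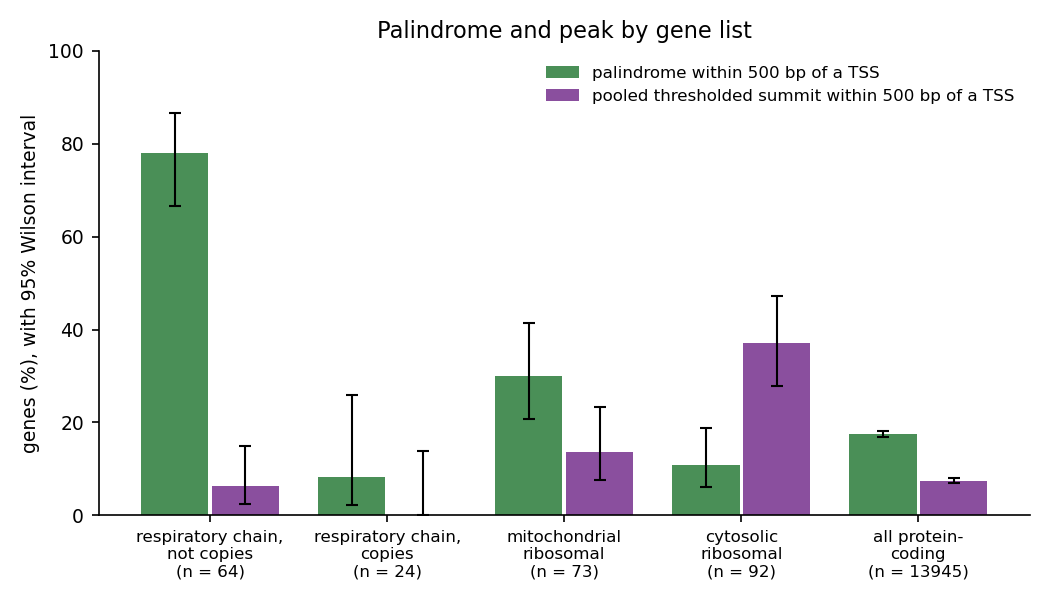
Share of genes with the palindrome within 500 bp of a TSS and share with a pooled thresholded summit there, in percent with 95% Wilson intervals, for 5 gene lists. Respiratory chain genes that are not copies have the palindrome in 78.1% and a peak in 6.25%, and cytosolic ribosomal protein genes have them in 10.9% and 37%.

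Other lists of the same organelle and of the ribosome gave other combinations. Over all genes the palindrome was in 17.5% and a pooled peak in 7.49%. Mitochondrial ribosomal protein genes had the palindrome in 30.1% and a pooled peak in 10 of 73 (13.7%), and cytosolic ones had them in 10.9% and in 34 of 92 (37%). Of 10 genes of the respiratory chain with symbols outside the rule, 9 had the palindrome and 3 a pooled peak (30%, Wilson interval 10.8% to 60.3%). These 3, and Idh3g, were named after their values were seen. They were Cyt-c-d, a cytochrome c gene, at 278, levy, which encodes a subunit of cytochrome c oxidase, at 176, and blw, the alpha subunit of the ATP synthase, at 119. The Cyt-c-d summit also lay within 500 bp of CG31808 and the levy summit within 500 bp of wmd, so neither can be assigned to 1 gene by position. Of 15 tricarboxylic acid cycle genes 8 had the palindrome and 2 a pooled peak (13.3%, Wilson interval 3.74% to 37.9%). These were Fum1 at 152 and Idh3g, a subunit of isocitrate dehydrogenase, at 157. Each of these summits was also within 500 bp of another gene. Levy is the parent of the copies COX6AL and COX6AL2. Its replicate signals were 81.2 and 84.9, while COX6AL had 12.1 and no region, and COX6AL2 had no region and 9.99.

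Motifs of known promoter factors differed less than the palindrome in the wide window, where it was in 53.4% of the members against 14.7% of all genes. GGTCACACT, the site of M1BP, was in 20.5% of the members from 500 bases before to 500 after the 5′-most TSS, against 8.21% of all genes. TATCGATA, the site of DREF, was in 15.9% against 12.3%. In the same window TGCGCATG, of the Ewg type, was in 2.27% against 2.88%. ACAGTGG, searched the same way, was in 9.09% against 11.1%. All were searched on both strands. Among the copies GGTCACACT and TATCGATA were each in 1 of 24 genes (4.17%). In the narrow window, 250 bases before to 50 after, GGTCACACT was in 17% of the members against 6.05% of all genes. TATCGATA was there in 10.2% against 9.36%. GGTCACACT thus differed more in that window than the palindrome, which was in 6.82% against 5.18%. The motifs are matches of letters and were not tested as binding sites.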

How the data were processed

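DNA precipitated through the GFP tag was sequenced in 2 replicates of 1 group. The authors deposited peak lists on dm6 made against a control, per the text files beside them. The aligner was not given in the sources used here, nor was the caller. The signal column of the deposited lists is the caller's value, of unstated scaling, and −log10 of the global IDR is a column of the ranked lists, as deposited. Read depth is unknown. The rest was computed here with Python 3.11.15, SciPy 1.17.1 and Matplotlib 3.10.9, with Ensembl release 115 genes and the RefSeq sequence of the same assembly, whose arm lengths were checked against the lists. Summit counting was tested on simulated peaks. Shares have 95% Wilson intervals. Where a count is 0, the share said to be allowed is instead 3 divided by the number of genes or sites, an approximation. For the pooled counts of complexes II to V the upper Wilson limits were 32.4%, 29.9%, 19.4% and 20.4%. No test between groups was possible, and none was run.

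The members and lists were chosen with earlier results of these data known. Named genes are members with a thresholded peak in any list, the 2 highest and the lowest per complex by pooled ranked signal, the 3 highest copies with their parents, and genes sharing a named peak, except where stated. Other windows, lists, thresholds, TSS rules and each replicate alone were tried.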

Additional observations from a re-analysis of the deposited data

How the results depend on the processing

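The count of 4 members with a pooled peak was 9 at an IDR of 0.05 (10.6% of all genes), where ND-SGDH, COX6B, COX7B, ATPsynE and ATPsyngamma were added, and 2 with the nearest TSS only (5.36% of all genes). With each replicate left out it ran from 2 to 4. None of the 20 copies with a parent among the members had a peak under any alternative run, which allows up to 15% of such a list. The ratio of the members' median ranked signal to that of all genes, 0.902, was 1.16 at 250 bp, 0.996 at 1000 bp and 0.985 in the other ranked list, and ran from 0.965 to 1.01 with each replicate left out. It thus fell on either side of 1, and no direction is claimed. The ratio of copies to parents, 0.906, ran from 0.608 to 0.755 with each replicate left out and was 1.12 with genes without a region at 0. The share of 5′-most promoters with the palindrome, 6.82%, was 53.4% from 500 bases before to 500 after, where all genes gave 14.7%, and 13.6% with any annotated TSS, where they gave 6.4%. The cause of these shifts was not tested. Counting the 4 copies of genes outside the rule and leaving out chromosome 4 were added after the data were seen. Read depth is unknown, which limits any statement on genes without a region. No paired analysis was possible because there is only 1 group.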
